A study of Homo sapiens with 8 samples.

Results

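The genes described here are 40 human genes of DNA replication and mitosis, chosen by name and not by their values. They were 17 genes of S phase, the stage in which DNA is copied, 18 genes of mitosis, and 5 regulators of the preceding G1 phase. All 40 were found among the 58395 genes of the deposited count table by their Ensembl identifiers in GENCODE release 29, and all 40 passed the filter on low counts that left 15637 genes for testing. The lowest count of any of them in any library was 228 reads.

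The libraries came from AB8, a human podocyte cell line; the podocyte is the cell that forms the filtration slits of the kidney glomerulus. AB8 is known as a conditionally immortalised line that carries a temperature-sensitive SV40 large T antigen, a viral protein that binds the retinoblastoma protein. The labels used here do not state the culture temperature. Every library, controls included, came from cells that carried the construct pIND21_hCrb2+GFP_S267A at passage 3 to 8 after modification. This construct encodes human CRB2, a Crumbs-family polarity protein, together with GFP and the S267A change, under doxycycline control. The 4 non-induced libraries (woDox) were compared with 4 libraries from cells given doxycycline for 48 h (Dox), and both groups are numbered 1 to 4. Libraries from doxycycline-treated cells without the construct were not analysed here, so the effects of the drug, of raised CRB2, of GFP and of the S267A change cannot be told apart. The labels do not say whether the libraries came from separate cultures or whether the line is 1 clone, so the p-values measure only the spread between these libraries, which may be technical.

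Progress through the cell cycle is driven by cyclin-dependent kinases. In G1, cyclin D and then cyclin E kinases inactivate the retinoblastoma protein and its relatives, which frees E2F transcription factors to switch on genes for DNA copying: the MCM2 to MCM7 subunits of the replicative helicase, the loaders CDC6 and CDT1, the sliding clamp PCNA, and the enzymes that make nucleotides. Later in the cycle, genes for spindle, kinetochore and chromosome proteins are switched on. Many of them are controlled through MuvB complexes, which bind CHR elements, and through the factor NF-Y, which binds CCAAT boxes. Kinase inhibitors of the INK4 family (CDKN2A, CDKN2B) and the CIP/KIP family (CDKN1B, CDKN1C) hold this programme back, and mature podocytes in the kidney are known as cells that seldom divide.

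RefSeq promoter entries (GRCh38.p14, 250 bases before to 50 bases after the annotated start) were matched by symbol for 32 members, 14 of S phase, 15 mitotic and 3 of G1. CCND1, CCNE2, MCM4, TPX2, BIRC5, MCM5, AURKA and CDKN1C had no match. The letters searched on both strands were TTTCGCGC or TTTGGCGC for E2F, TTTGAA or TTCGAA for the CHR, and CCAAT. Other forms of these elements were not searched, so a gene without a match may still hold one. E2F letters were found in 7 of 14 S-phase genes (50.0%), 1 of 15 mitotic genes (6.67%) and 1.4% of all 27305 genes with an entry. The CHR letters were found in 11 of 15 mitotic genes (73.3%), 2 of 14 S-phase genes (14.3%) and 19.5% of all genes. CCAAT was common to both classes, with 13 of 15 mitotic genes (86.7%) and 10 of 14 S-phase genes (71.4%) against 39.7% of all genes. CHR and CCAAT letters stood in the same promoter in 10 of 15 mitotic genes (66.7%) and in 7.85% of all genes. A match describes the letters and not a bound site, and a gene with several promoter entries was counted when any of them held the letters.

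The 160 bases before the start are printed 5′ to 3′ on the gene's strand for 7 members whose values are described later. They show examples of both classes side by side. Capitals mark the E2F, CHR and CCAAT letters on either strand, so that CCAAT on the other strand reads ATTGG. The S-phase examples are MCM6 (chr2:135876444-135876603, minus strand), E2F1 (chr20:33686386-33686545, minus strand) and PCNA (chr20:5126623-5126782, minus strand). The mitotic examples are KIF11 (chr10:92592970-92593129, plus strand), MKI67 (chr10:128126424-128126583, minus strand), CDC20 (chr1:43358821-43358980, plus strand) and CENPF (chr1:214603035-214603194, plus strand).
MCM6: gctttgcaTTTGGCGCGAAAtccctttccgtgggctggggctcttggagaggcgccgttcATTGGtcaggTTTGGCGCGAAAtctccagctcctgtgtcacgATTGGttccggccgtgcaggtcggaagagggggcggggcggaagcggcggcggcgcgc
E2F1: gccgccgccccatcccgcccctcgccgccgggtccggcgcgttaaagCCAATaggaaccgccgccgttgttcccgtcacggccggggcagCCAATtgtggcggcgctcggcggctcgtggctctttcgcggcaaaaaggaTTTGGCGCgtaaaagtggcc
PCNA: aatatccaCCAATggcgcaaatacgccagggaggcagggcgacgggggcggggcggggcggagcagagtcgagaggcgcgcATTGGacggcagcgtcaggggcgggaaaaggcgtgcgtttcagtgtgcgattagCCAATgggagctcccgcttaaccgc
KIF11: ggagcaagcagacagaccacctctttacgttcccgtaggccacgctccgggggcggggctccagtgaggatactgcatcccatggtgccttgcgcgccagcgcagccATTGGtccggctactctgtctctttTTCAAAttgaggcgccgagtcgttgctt
MKI67: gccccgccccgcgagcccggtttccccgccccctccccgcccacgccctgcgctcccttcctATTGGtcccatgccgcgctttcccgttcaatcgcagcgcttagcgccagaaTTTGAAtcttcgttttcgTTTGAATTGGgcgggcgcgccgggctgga
CDC20: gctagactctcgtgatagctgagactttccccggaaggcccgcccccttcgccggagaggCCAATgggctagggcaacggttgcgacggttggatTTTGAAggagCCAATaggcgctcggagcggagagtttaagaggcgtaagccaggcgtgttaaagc
CENPF: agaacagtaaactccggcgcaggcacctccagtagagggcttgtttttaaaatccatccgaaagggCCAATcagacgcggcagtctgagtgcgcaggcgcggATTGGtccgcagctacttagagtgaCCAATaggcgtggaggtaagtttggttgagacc
MCM6 held E2F letters at 2 places, each read on both strands as overlapping matches, and E2F1 held them once close to its start. PCNA held only CCAAT among the letters searched, which do not cover every form of an E2F site. MKI67 held the CHR letters at 2 places, the second overlapping a CCAAT, while KIF11 and CDC20 held them once, and CENPF held 3 CCAAT and no CHR letters in this stretch. In the longer stretch searched, both MCM6 and CENPF held CHR letters outside the bases printed, so the examples do not divide cleanly by class.

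The libraries held 16829454 to 23081616 counted reads. Values below are counts per 1000000 reads (CPM) on library totals scaled by the TMM method, which compares libraries for 1 gene. CRB2, the induced gene, was at 8.31, 26.0, 26.4 and 21.8 CPM without doxycycline (libraries 1 to 4) and at 1734, 4252, 4599 and 4481 CPM with it (1 to 4), so that the groups did not overlap and each library matched its label. Both libraries numbered 1 had the least CRB2 of their group and stood apart from the other 3 in most of the genes described here; their values are given with each result and on their own at the end. Of 8 podocyte markers, NPHS1 and LMX1B stayed at or under 0.10 CPM, and CD2AP, an adaptor protein found in many cell types, made up most of their summed level of 263 to 307 CPM in non-induced and 301 to 318 CPM in induced libraries. WT1, a podocyte transcription factor, was at 0.75 and 0.51 CPM in the libraries numbered 1 and between 2.57 and 4.61 CPM in the others. Of 8 markers of leukocytes, endothelium, mesangium and tubule, LRP2 had no read, PTPRC, PECAM1 and CDH1 were near 0, and PDGFRB, a mesangial marker, made up most of a summed level of 11.8 to 14.0 CPM in non-induced and 13.5 to 18.3 CPM in induced libraries. With the replicate number as a block in the model, which is described with the induction results, edgeR called 2 of the 6 tested podocyte markers, PODXL (log2 change 0.49) and PLCE1 (0.46), and 1 of 2 tested markers of other cells, PDGFRB (0.34), all higher with doxycycline (adjusted p 0.035, 0.00367 and 0.0299); without it 0 of these 8 passed (adjusted p 0.388 to 0.98). The part of these markers in the results was not tested.

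The replication and mitosis genes were strongly expressed. Per length, in TPM (transcripts per 1000000 transcripts), and in the non-induced libraries, PCNA was highest at 954 ± 79.1 TPM (SD, n = 4), followed by CDC20, the mitotic activator of the anaphase-promoting complex, at 536 TPM, and TOP2A, the topoisomerase that untangles sister chromatids, at 498 TPM. The lowest were CCNE2 and CCNE1, the cyclins E, at 37.9 and 33.6 TPM, and CDKN2B at 16.7 TPM. CDKN2B ranked above 48.8% of all tested genes per length, and the other 39 members ranked above 66.1% to 99.4% of them. In every library all 40 members exceeded 10 CPM, and their range was 11.6 to 921.8 CPM. The plot of members by library shows the level of each gene relative to its mean in non-induced libraries 2 to 4.

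**Figure D1:**
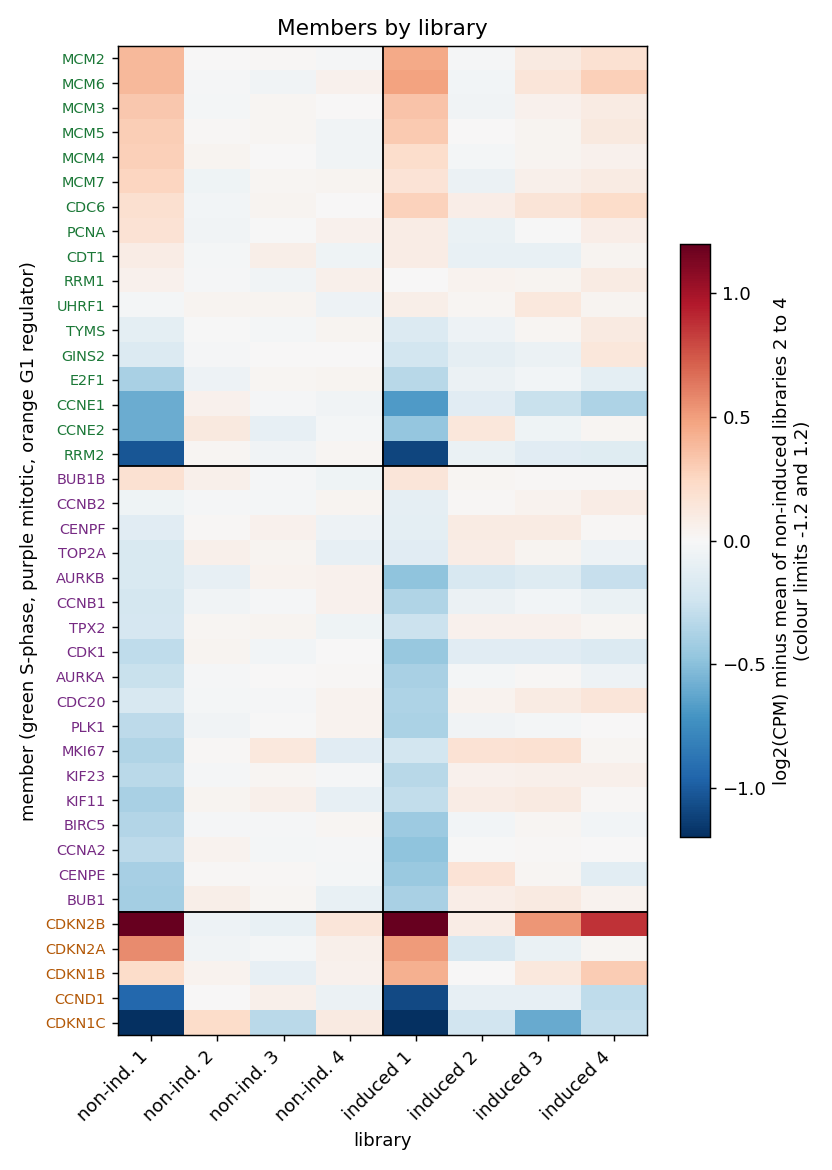
Each row is 1 of the 40 genes, grouped by class, and each column is 1 library (non-induced 1 to 4, then induced 1 to 4); colour gives log2 CPM minus the gene's mean over non-induced libraries 2 to 4. The columns of the libraries numbered 1 carry the strongest colours in both groups, with MCM2 to MCM7 higher and 17 of 18 mitotic genes lower than in the other 3.

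Induction of CRB2 was followed by small differences in these genes. Without the replicate number in the model, 0 of the 40 members passed an adjusted p of 0.05 in edgeR's quasi-likelihood test, where 6 of 15637 genes (0.0384%) passed. DESeq2 without the replicate number also called 0 members. Only AURKB had an unadjusted p under 0.05 in edgeR, and the adjusted p of the members ran from 0.43 to 1.0. In 0 of the 40 members did the induced and non-induced libraries separate without overlap, against 7.04% of all tested genes. Library 1 lay outside the others of its group, on the same side in both groups, for 95.0% of members and 56.4% of all tested genes. Such a shared shift widens both groups, so the lack of separation cannot be read as a weaker response.

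Same-numbered libraries deviated together, so the number was also put into the model as a block. This compares each induced library with the non-induced library of the same number. The labels do not say what the number stands for. The lowest correlation of a same-numbered pair (0.648) was under the highest between other numbers (0.667). In this blocked edgeR test 8 of 40 members (20.0%) passed, 3 higher and 5 lower, beside 13.8% of all genes (7.51% higher and 6.29% lower). CDC6, MKI67 and CDKN2B rose, and CCNE1, CDK1, AURKB, CCND1 and CDKN1C fell. Their log2 changes lay between -0.30 and 0.43. The count changed with the pairs kept: it was 9, 8, 5 and 2 when pair 1, 2, 3 or 4 was left out, and 6 in DESeq2 with the block. The shares of all genes called in these settings are not given here, so a change particular to the members cannot be read from these counts. When both libraries numbered 1 were left out and no block was used, edgeR called 1 of 40 members, AURKB, and 3.44% of all genes.

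The class medians lay near 0. The S-phase genes had a median log2 change of 0.0084 and the mitotic genes one of 0.016 without the block, beside 0.00059 over all tested genes. Without both libraries numbered 1 the medians were 0.027 and 0.018. Pair by pair, the S-phase median was -0.0030, -0.019, 0.029 and 0.083 in pairs 1 to 4, and the mitotic median was -0.057, 0.018, 0.033 and 0.049. Both classes thus lay slightly over 0 in the last pair, and the mitotic median lay slightly under 0 in the first. The sign of the S-phase median in the first pair depended on the processing. It ran from -0.0063 to 0.021 over 4 alternatives of scaling and prior count. The median size of a change, whatever its sign, was 0.04 on the log2 scale in both classes in the blocked fit, against 0.10 over all tested genes and 0.16 among the 5 G1 regulators. The median standard error was 0.04 in both classes in that fit and 0.08 (S-phase) and 0.10 (mitotic) without the block. Over all tested genes it was also larger, at 0.07 with the block and 0.12 without it.

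**Figure D2:**
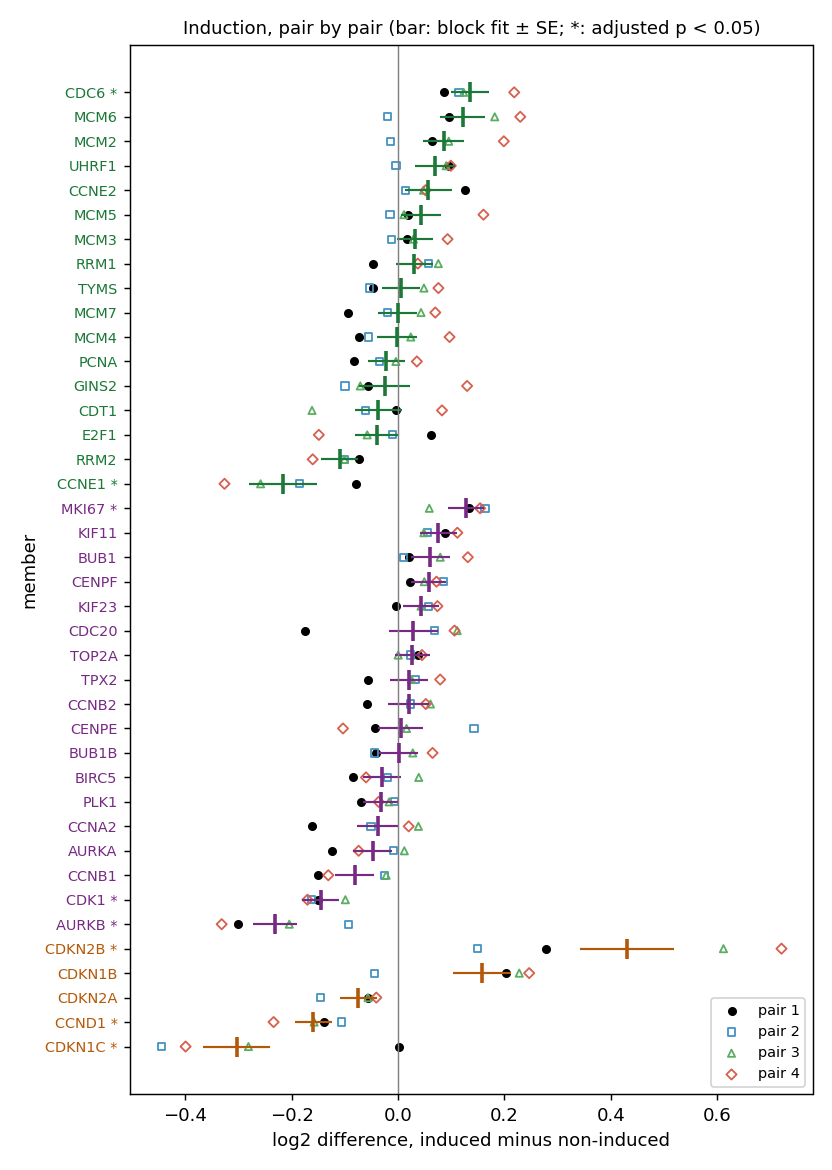
Each row is 1 of the 40 genes, coloured by class (S-phase green, mitotic purple, G1 brown) and ordered by its change; the 4 symbols give log2 CPM of an induced library minus its same-numbered non-induced partner, the vertical tick the log2 change of the blocked edgeR fit, the horizontal bar its SE, and an asterisk an adjusted p under 0.05. The symbols lie on both sides of 0 in 13 of 17 S-phase and 9 of 18 mitotic rows, and CDKN2B, CDKN1C, AURKB and CCNE1 lie farthest from it.

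In the S-phase class, 1 of 17 genes rose and 1 fell with the block: CDC6 and CCNE1. No MCM subunit passed. CDC6, which loads the helicase at origins, was at 205, 175, 182 and 179.7 CPM without doxycycline (libraries 1 to 4) and at 217, 189, 199 and 209 CPM with it (1 to 4). It was higher in 4 of 4 pairs although the groups overlapped, with a log2 change of 0.14 (SE 0.036) and an adjusted p of 0.023 in the blocked edgeR test. That call was lost in DESeq2 with the block and without pair 3 or 4 (adjusted p 0.082 to 0.14). MCM6, a helicase subunit, was at 234, 177, 174 and 185 CPM without and 249, 174, 197 and 217 CPM with doxycycline; its log2 change was 0.12 (SE 0.042, blocked edgeR adjusted p 0.0683), and the adjusted p was 0.020 when pair 2 was left out. Of MCM2 to MCM7, 0 of 6 were higher in pair 2, 4 of 6 in pair 1, and 6 of 6 in pairs 3 and 4. The summed level of the 6 subunits was 2066, 1657, 1677 and 1661 CPM without and 2049, 1627, 1742 and 1815 CPM with doxycycline. PCNA, the sliding clamp, was at 402, 347, 356 and 369 CPM without and 379, 339, 355 and 378 CPM with doxycycline, and its log2 change of -0.022 (SE 0.035) did not pass (blocked edgeR adjusted p 0.73).

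Cyclin E and nucleotide synthesis genes gave 1 call. CCNE1, a cyclin that drives entry into S phase, was at 16.3, 25.6, 24.5 and 23.9 CPM without and 15.4, 22.5, 20.5 and 19.1 CPM with doxycycline. It was lower in 4 of 4 pairs and fell by 0.22 on the log2 scale (SE 0.064, blocked edgeR adjusted p 0.0384). Libraries numbered 1 held the least CCNE1 in both groups, and the call was lost in DESeq2 with the block and without pair 2, 3 or 4 (adjusted p 0.073 to 0.22). Its paralogue CCNE2 was higher in 4 of 4 pairs, by 0.015 to 0.13 on the log2 scale, and did not pass. RRM2, the regulated subunit of ribonucleotide reductase, was at 111, 229.8, 221 and 229.8 CPM without and 106, 214, 206 and 206 CPM with doxycycline. It was lower in 4 of 4 pairs, with a log2 change of -0.11 (SE 0.035) and an adjusted p of 0.0504 in the blocked edgeR test. With the block it passed under RLE scaling (0.046), under upper quartile scaling (0.033) and without pair 1 (0.044). RRM1, the large subunit of that enzyme, and TYMS, the thymidylate synthase, had pair differences of -0.054 to 0.076 on the log2 scale and did not pass. E2F1, the transcription factor, CDT1, a helicase loader, GINS2, a helicase subunit, and UHRF1, which guides maintenance methylation, did not pass, and neither did the other MCM subunits.

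In the mitotic class, 1 of 18 genes rose and 2 fell with the block. AURKB, the kinase of the chromosomal passenger complex, was at 192, 204, 225 and 226 CPM without doxycycline (libraries 1 to 4) and at 156, 191, 195 and 179.7 CPM with it (1 to 4). It was lower in 4 of 4 pairs and the groups overlapped. It fell by 0.23 on the log2 scale (SE 0.042, blocked edgeR adjusted p 0.00258), and the call held in all 9 alternatives to that fit (adjusted p 0.00071 to 0.024). Without the block and without both libraries numbered 1, it also fell, by 0.22 (edgeR adjusted p 0.048).

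CDK1, the kinase that drives entry into mitosis, was at 165, 208, 199 and 205 CPM without and 149, 186, 186 and 182 CPM with doxycycline. It was lower in 4 of 4 pairs and fell by 0.15 on the log2 scale (SE 0.035, blocked edgeR adjusted p 0.0127, 0.054 without pair 4). Its partner cyclin CCNB1 was at 266, 299, 305 and 319 CPM without and 240.1, 294, 301 and 292 CPM with doxycycline; it was lower in 4 of 4 pairs but did not pass, with a log2 change of -0.082 (SE 0.036, blocked edgeR adjusted p 0.154). MKI67, the chromosome-coating protein known as the Ki-67 proliferation marker, differed in the opposite direction. Its levels were 458, 591, 639 and 534 CPM without doxycycline (libraries 1 to 4) and 502, 661, 666 and 594 CPM with it (1 to 4), higher in 4 of 4 pairs. It rose by 0.13 on the log2 scale (SE 0.034, blocked edgeR adjusted p 0.024), a call that was lost without pair 2, 3 or 4 (adjusted p 0.064 to 0.12).

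The other 15 mitotic genes did not pass. TOP2A, BUB1 (a checkpoint kinase), KIF11 (the motor that separates spindle poles) and CENPF (a kinetochore protein) were higher in 4 of 4 pairs, and PLK1, a mitotic kinase, was lower in 4 of 4, with log2 differences of -0.069 to -0.0067. CDC20 split by pair: its log2 difference was -0.17 in pair 1 and 0.068 to 0.11 in pairs 2 to 4. CENPE, a kinetochore motor, also split, from -0.10 in pair 4 to 0.14 in pair 2. CCNA2, CCNB2, AURKA, BUB1B, BIRC5, KIF23 and TPX2, which include cyclins, spindle assembly factors and the passenger protein survivin (BIRC5), had pair differences between -0.16 and 0.079. Of all 40 members, 8 were higher in 4 of 4 pairs and 8 in none. Of all 15637 tested genes, 2913 were higher in 4 of 4 pairs and 2659 in none.

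The 2 largest log2 changes among the 40 members were those of the G1 regulators CDKN2B and CDKN1C. CDKN2B, the inhibitor p15 of the cyclin D kinases, was at 33.3, 11.9, 11.6 and 13.6 CPM without doxycycline (libraries 1 to 4) and at 40.3, 13.2, 17.8 and 22.5 CPM with it (1 to 4). It was higher in 4 of 4 pairs, by 0.15 in pair 2 and 0.72 in pair 4 at the extremes, and rose by 0.43 on the log2 scale (SE 0.089, blocked edgeR adjusted p 0.00787, held in all 9 alternatives, 0.0016 to 0.048). The non-induced library 1 stood above induced libraries 2 to 4, so the groups overlapped.

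CDKN1C, the inhibitor p57, known for its high level in mature podocytes, was at 28.4, 89.2, 61.1 and 82.7 CPM without and 28.4, 65.5, 50.2 and 62.7 CPM with doxycycline. It was lower in 3 of 4 pairs, with a difference of 0.0023 in pair 1, and fell by 0.30 on the log2 scale (SE 0.063, blocked edgeR adjusted p 0.00897, 0.073 without pair 4). CCND1, cyclin D1, was at 306, 589, 613 and 559.6 CPM without and 278, 547, 549.6 and 476 CPM with doxycycline. It was lower in 4 of 4 pairs and fell by 0.16 on the log2 scale (SE 0.035, blocked edgeR adjusted p 0.00848, 0.055 without pair 4).

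CDKN1B, the inhibitor p27, was at 43.6, 38.6, 34.9 and 38.8 CPM without and 50.2, 37.5, 40.9 and 46.1 CPM with doxycycline. It was higher in 3 of 4 pairs and did not pass, with a log2 change of 0.16 (SE 0.054, blocked edgeR adjusted p 0.0672, 0.012 without pair 2). CDKN2A, which encodes p16 and p14ARF, was at 298, 195, 199 and 211 CPM without and 287, 177, 191 and 205 CPM with doxycycline, a log2 change of -0.074 (SE 0.035) that did not pass (blocked edgeR adjusted p 0.177). The counts do not separate the p16 and p14ARF transcripts, and exons of CDKN2A overlap CDKN2B-AS1 on the other strand.

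**Figure D3:**
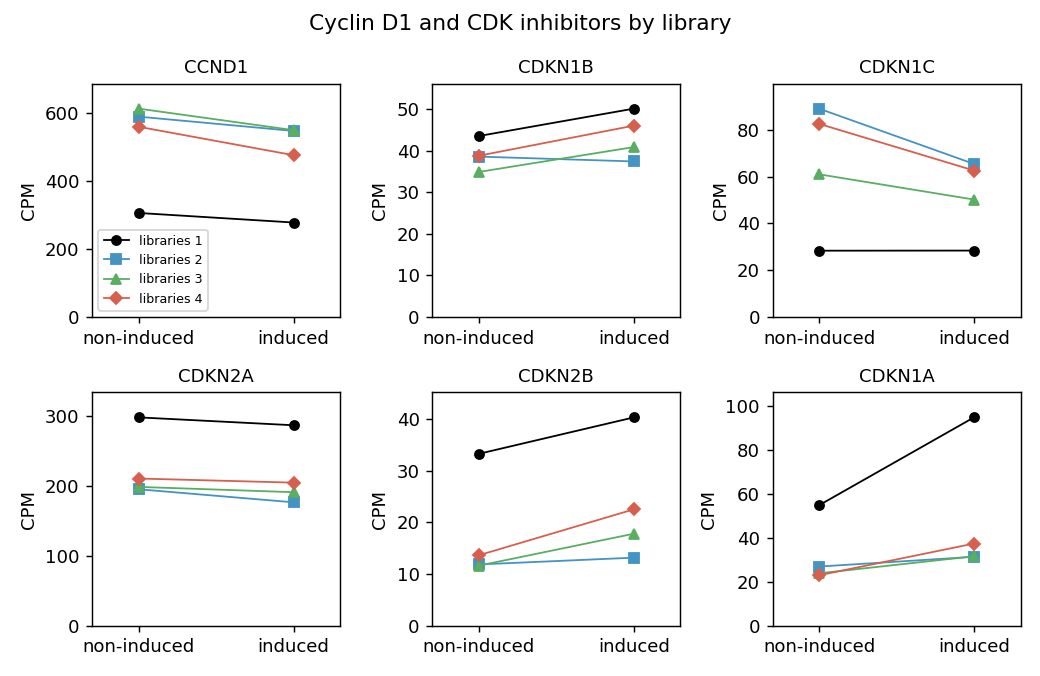
Each panel gives the CPM (axis from 0) of 1 gene, the 5 G1 regulators and CDKN1A of the wider list, in the 8 libraries, with lines joining same-numbered non-induced and induced libraries. CDKN2B and CDKN1A are higher and CCND1 lower in the induced library of all 4 pairs, and in every panel the libraries numbered 1 lie outside the range of the others of their group.

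Of 50 further replication genes, 3 (6.0%) were called with the block, beside 13.8% of all tested genes, and all 3 rose: MCM8, a helicase of recombination repair, by 0.14, GINS3, a helicase subunit, by 0.24, and TIMELESS, a fork protection factor, by 0.13 on the log2 scale (blocked edgeR adjusted p 0.0197, 0.020 and 0.0259). All 3 calls were lost in DESeq2 with the block, that of MCM8 also without pair 1, 3 or 4, and those of GINS3 and TIMELESS also without pair 2, 3 or 4 (adjusted p 0.051 to 0.16). WDHD1, a replisome adaptor, did not pass (log2 change 0.11). Of 70 further mitosis genes, 3 rose and 6 fell, a share of 12.9% that is near that of all genes. UBE2C, the ubiquitin-conjugating enzyme of the anaphase-promoting complex, was at 153, 188, 199 and 204 CPM without and 122, 168, 162 and 163 CPM with doxycycline and fell by 0.27 on the log2 scale (SE 0.038, blocked edgeR adjusted p 4.85e-04). It held in all 9 alternatives to the blocked fit, as did KNL1, a kinetochore scaffold, which rose by 0.28 (blocked edgeR adjusted p 0.00248). SPC24, a kinetochore subunit, fell by 0.24 and UBE2S, which extends ubiquitin chains for the same complex, fell by 0.15 (blocked edgeR adjusted p 0.00916 and 0.017). These calls were lost without pair 4, and that of UBE2S also without pair 3 and in DESeq2 with the block. FOXM1, a transcription factor of mitotic genes, did not pass, at a log2 change of 0.067.

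The list of 32 genes that control CDK, RB and E2F activity had 31 tested members, of which 3 rose and 2 fell with the block (16.1%, beside the same 13.8%). CDKN1A, the inhibitor p21, was at 54.8, 26.9, 23.8 and 22.9 CPM without and 94.8, 31.3, 31.6 and 37.4 CPM with doxycycline. It rose in the blocked edgeR test by 0.55 on the log2 scale (SE 0.095, adjusted p 0.0108, 0.077 without pair 4) and was higher in 4 of 4 pairs. E2F8, a repressive E2F, rose by 0.27 and CDKN2C, the inhibitor p18, by 0.22, while CDKN2D, the inhibitor p19, fell by 0.29 (blocked edgeR adjusted p 0.0079, 0.0114 and 0.0322). These 3 calls were lost in DESeq2 with the block (adjusted p 0.060 to 0.23) and without 1 or more of the pairs.

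The libraries numbered 1 differed from the other 3 of their group by a median size of 0.28 (non-induced) and 0.21 (induced) on the log2 scale among the S-phase genes and of 0.29 and 0.35 among the mitotic genes, beside 0.23 in each group over all tested genes. The split follows the replicate number, was known from earlier results and is given as a description. In both groups, library 1 lay outside the range of the other 3, on the same side, for 38 of 40 members, 13 of them higher and 25 lower. Over all tested genes 28.2% were higher and 28.1% lower in this way. Fewer cells in a stage and less RNA per cell cannot be told apart in such bulk libraries.

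Most mitotic genes were lower in library 1, and the S-phase genes went both ways. The mitotic genes had a median log2 difference from the other 3 libraries of -0.29 in the non-induced and -0.35 in the induced group, and 17 of 18 were lower in both. The S-phase genes had medians of 0.092 and 0.087, with 9 of 17 higher and 6 lower, and the median over all tested genes was 0.0088 and 0.0052. The S-phase mean of log2 CPM, in which each gene weighs the same, was lowest in non-induced library 1 and within the range of the others in induced library 1: it was 7.31, 7.34, 7.34 and 7.34 without doxycycline (libraries 1 to 4) and 7.32, 7.31, 7.35 and 7.40 with it. The ratio of summed S-phase to summed mitotic CPM was 0.852, 0.657, 0.655 and 0.689 without doxycycline (libraries 1 to 4) and 0.864, 0.633, 0.660 and 0.717 with it. This ratio of sums, to which abundant genes contribute most, was highest in library 1 of each group and next in library 4.

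Within the S-phase class the MCM genes and RRM2 lay at opposite ends. All 6 subunits MCM2 to MCM7 were higher in library 1, by 0.26 to 0.39 on the log2 scale in non-induced and 0.13 to 0.36 in induced cells, as were CDC6, CDT1 and PCNA. MCM2 was at 301, 231, 232 and 229 CPM without doxycycline (libraries 1 to 4) and at 315, 229, 248 and 262 CPM with it (1 to 4). The genes that were lower were RRM2, CCNE1, CCNE2, E2F1, TYMS and GINS2. RRM2, whose levels are given above, had log2 differences of -1.03 (non-induced) and -0.98 (induced). CCNE2 was at 31.8, 52.0, 44.8 and 47.1 CPM without doxycycline (libraries 1 to 4) and at 34.7, 52.5, 46.3 and 48.8 CPM with it (1 to 4). E2F1 was at 90.2, 114, 120.2 and 121 CPM and 94.2, 113, 116 and 109 CPM in the same order. For each of these 4 genes the library numbered 1 lay clear of the other 3 in both groups. RRM1 and UHRF1 were the S-phase genes within or on different sides of that range.

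In the mitotic class, the most negative log2 differences of library 1 were those of BUB1 (-0.41) and CENPE (-0.40) in the non-induced group and of CCNA2 (-0.48) in the induced group. BUB1 was at 121, 168, 163 and 150.5 CPM without doxycycline (libraries 1 to 4) and at 122, 169, 172 and 165 CPM with it (1 to 4), and CENPE at 108, 145, 144 and 141 CPM and 105, 160.1, 146 and 131 CPM. CCNA2, the cyclin of S phase and G2, was at 143, 184, 175 and 176 CPM and 128, 177, 179.6 and 178 CPM. KIF11 was at 151, 202, 205 and 184 CPM in non-induced and 160.4, 210.0, 212 and 199 CPM in induced libraries, again lowest in library 1 of each group. CCNB2, cyclin B2, differed least of the 17 genes that were lower, at 97.2, 99.7, 99.0 and 103 CPM and 93.3, 101, 103 and 107 CPM. BUB1B, the checkpoint protein BubR1, was the 1 mitotic gene that was higher in library 1, at 172, 158, 149.8 and 146 CPM without doxycycline (libraries 1 to 4) and 167, 153, 153 and 153 CPM with it (1 to 4); its exons overlap the readthrough gene BUB1B-PAK6 on the same strand.

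**Figure D4:**
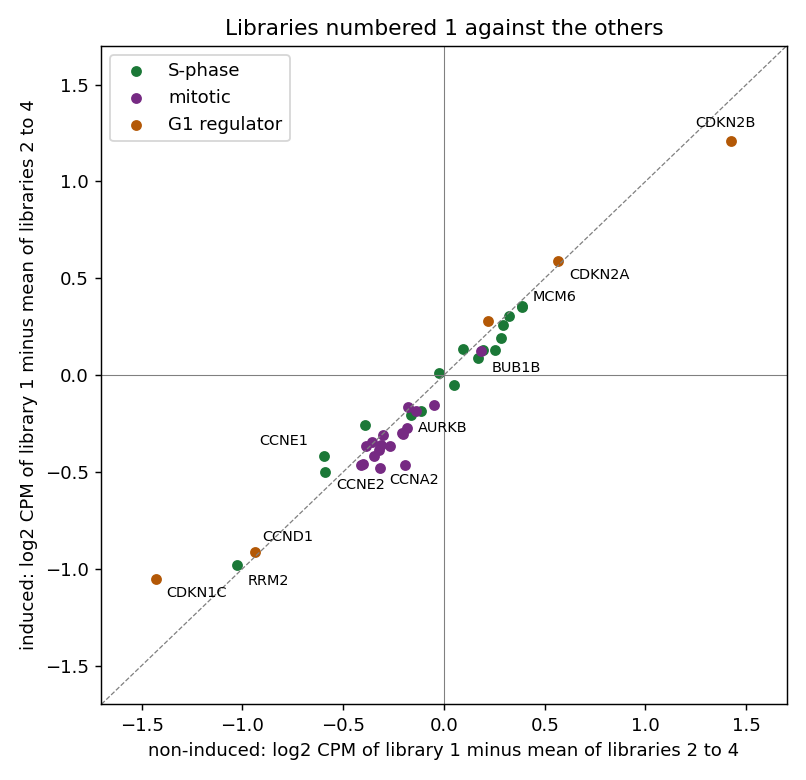
Each point is 1 of the 40 genes; the axes give log2 CPM of library 1 minus the mean of libraries 2 to 4 in the non-induced (x) and the induced (y) group, with equality as a dashed line. Points lie near that line from CDKN1C, CCND1 and RRM2 at the lower left to CDKN2A and CDKN2B at the upper right, with the MCM genes above 0 and the mitotic genes, other than BUB1B, below it.

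The 2 widest gaps among the members were those of CDKN2B and CDKN1C. CDKN2B was 2.68-fold and 2.31-fold as high in library 1 as in the mean of the other 3 in the non-induced and induced groups, CDKN2A 1.48-fold and 1.51-fold, and CDKN1B 1.16-fold and 1.21-fold. CDKN1C was 2.70-fold and 2.08-fold lower, and CCND1 1.92-fold and 1.88-fold lower. Together with RRM2, the members that differed by at least 1.5-fold in both groups were CDKN2B, CDKN1C and CCND1. These were 4 of 40 members, beside 1714 of all 15637 tested genes that differed by as much on the same side in both groups. The sign of the library 1 difference was the same in both groups for 38 of 40 members (95.0%), and for 80.4% of all tested genes; across the 40 genes the differences in the 2 groups had a Pearson's r of 0.977, against 0.849 over all tested genes, as a description of genes that share libraries.

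The wider lists are read beside all tested genes, of which 28.2% were higher and 28.1% lower in library 1 of both groups. Of 70 further mitosis genes, 0 were higher and 58 (82.9%) lower in library 1 of both groups. Of 50 further replication genes, 23 (46.0%) were higher and 13 (26.0%) lower, the latter near the share of all genes. FOXM1 was at 105, 157, 156 and 147 CPM without doxycycline (libraries 1 to 4) and at 105, 163, 161 and 164 CPM with it (1 to 4), lowest in library 1 of each group. Of the 31 tested genes of CDK, RB and E2F control, 8 (25.8%) were higher, near the share of all genes, and 13 (41.9%) lower. CDKN1A was the highest in library 1 of each group. CCND2, cyclin D2, did not pass the filter on low counts and was not tested. It had 146, 2, 1 and 3 reads without doxycycline (libraries 1 to 4) and 148, 0, 2 and 5 reads with it. Nearly all of its reads thus came from the libraries numbered 1. CRB2 was also lowest in library 1 of each group. Of the 6 tested podocyte markers, library 1 lay outside the other 3 in both groups for 5, with WT1, SYNPO, PODXL and TCF21 lower and PLCE1 higher, while their summed level in library 1 lay within the range of the others. The part of CRB2 or of these markers in the differences was not tested. Exons of MCM2, MCM7, RRM1, TYMS, GINS2, CCNE2, CCNA2, PLK1, KIF23, CCND1 and CDKN2A overlap a gene on the other strand, and those of RRM2 and BUB1B one on the same strand, so their counts could hold or lose reads of that neighbour.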

How the data were processed

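Total RNA went through a directional library kit and was read from one end over 75 bases on an Illumina NextSeq, per the labels' protocols. The submitters' processing notes name HTSeq 0.11.1 and DESeq2 1.24.0, HISAT2 2.1.0, Trimmomatic 0.38 and bcl2fastq, and hg38 (GRCh38) as the build. Which annotation release and which strand setting the counting used is not given in the sources used here. Raw counts per gene were deposited by the authors for the 8 libraries and were used unchanged. Their normalized table holds the same counts divided by 1 factor per library and was not used.

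Symbols came from GENCODE 29, which named 58275 of 58395 identifiers. Genes were filtered with filterByExpr (minimum count 10), scaled by TMM and tested in edgeR 4.0.16 (R 4.3.3, limma 3.58.1) with the robust quasi-likelihood test, two-sided, with Benjamini-Hochberg adjustment over all 15637 genes and a threshold of 0.05. Standard errors are of the fitted log2 change, and levels in pairs and libraries are log2 CPM with a prior count of 2. TPM used exon-union lengths. DESeq2 1.42.0 was an alternative, and the scripts were tested on simulated data. The changes planted there were larger than any fitted for the members, so that test does not cover changes of the size reported. Totals of 16829454 to 23081616 reads put the lowest member count at 228.

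Same-numbered libraries deviated together (correlations over 11502 genes of 0.648 to 0.911 for the 4 pairs, and -0.775 to 0.667 for other numbers), so the replicate block is reported where it changes a call. The labels do not say what the number stands for. Values were given in every library for the 4 members of each class with the smallest blocked p, the 2 with the largest unblocked change, all G1 regulators, MKI67, PCNA, CCNB1 and CDK1; from each wider list up to 4 genes with the smallest blocked p, CDKN1A and FOXM1 were named. Levels in every library of MCM2, CCNE2, E2F1, BUB1, CENPE, CCNA2, KIF11, CCNB2 and BUB1B, and CCND2, were added after their values were seen. The members and lists were chosen with earlier results of these data known. Figures were drawn and tables made in Python 3.11.15 with pandas 2.3.3 and numpy 2.4.6. Of the podocyte markers listed, 2 are not reported here.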

Additional observations from a re-analysis of the deposited data

Results flagged for a closer look

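In 20 of 80 checks of 1 member in 1 group of 4 libraries, the extreme library lay further from its neighbour than Dixon's 95% criterion allows. That criterion flags about 1 in 20 groups of independent values. The 80 checks share the same 8 libraries and are not independent, so this rate does not measure chance here. Library 1 lay outside the other 3 on the same side in both groups for 56.4% of all tested genes. The share of all genes that Dixon's criterion flags is not given here. In all 20 the extreme library was the one numbered 1. In the non-induced group it was high for MCM2 (301.3 CPM), MCM3 (331.5 CPM), CDKN2A (298.4 CPM) and CDKN2B (33.28 CPM), and low for RRM2 (111.4 CPM), GINS2 (50.99 CPM), AURKA (180.9 CPM), BIRC5 (171.8 CPM), KIF23 (197.6 CPM) and CENPE (108.5 CPM). In the induced group it was high for BUB1B (167.0 CPM) and low for RRM2 (105.8 CPM), CCNB1 (240.1 CPM), CCNA2 (127.8 CPM), CDK1 (148.8 CPM), BUB1 (122.3 CPM), PLK1 (175.1 CPM), BIRC5 (162.0 CPM), KIF23 (197.0 CPM) and TPX2 (403.3 CPM). RRM2, BIRC5 and KIF23 were flagged in both groups.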

How the results depend on the processing

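Without the replicate block, 0 members were called in any alternative of scaling, filter, tool or single library left out; 1, the mitotic gene AURKB, was called without both libraries numbered 1. With the replicate block, edgeR called 8 members (2 S-phase, 3 mitotic), and DESeq2 called 6 (0 S-phase, 3 mitotic). Leaving out 1 pair at a time gave 2 to 9 members, 0 to 3 S-phase and 1 to 3 mitotic genes. At an adjusted p of 0.01, a threshold added after seeing the data, the blocked edgeR test called 4 members (0 S-phase, 1 mitotic). The other added settings (the block with other scalings or without robust estimation) kept the counts within 1.5-fold. The share of all genes called is not given here for any of these alternatives to the blocked test. The median log2 change ranged from -0.011 to 0.044 (S-phase) and from -0.030 to 0.067 (mitotic) with 1 library left out. Among the 28 genes for which these alternatives were run, 5 unblocked log2 changes that did not pass turned sign when 1 library was left out: RRM2 (-0.31 to 0.072), CCND1 (-0.34 to 0.016), CDKN2A (-0.25 to 0.092), PCNA (-0.056 to 0.022) and FOXM1 (-0.048 to 0.20). Scaling by library totals moved the S-phase medians of library 1 to 0.14 (non-induced) and 0.16 (induced) and the mitotic ones to -0.24 and -0.28, in the same directions; the cause was not tested. The calls that the same-numbered pairing added are those given with the block in the report.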
